A study of Mus musculus with 4 samples.

Results

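The glycolysis and hypoxia response genes examined here are 40 genes picked by symbol from the 17915 genes of the count table, 24 of glucose uptake, glycolysis and pyruvate use and 16 of the hypoxia-inducible factor (HIF) pathway with its targets. Of the 40 genes 38 had enough counts to be tested, and the 2 left out were Eno2 and Hif3a. The libraries were made from endothelial cells sorted from mouse lung. All mice carried Cdh5-CreER, aSMA-LSL-Dre and NR1, received tamoxifen 5 times and had lived 6 weeks with transverse aortic constriction, a narrowing of the aorta that loads the heart. Cdh5-CreER is an inducible recombinase driven by an endothelial promoter, and Dre sits under the gene for alpha smooth muscle actin, so that endothelial cells are ZsGreen+ until that gene has been active and tdTomato+ afterwards, even where the activity was brief. The comparison was of 2 libraries of tdTomato+ cells with 2 of ZsGreen+ cells, each called a biological replicate. The labels give neither age nor sex, nor whether libraries came from separate mice, so the p-values speak of the spread among these 4 libraries. No group without constriction was analysed here, and the tdTomato mark records a past event rather than the state at sorting.

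Glycolysis splits glucose into pyruvate through a chain of enzymes, many of which exist as several isozymes from separate genes, and endothelial cells are known to draw much of their energy from it. HIF is a transcription factor made of an oxygen-sensitive alpha subunit (Hif1a, Epas1 or Hif3a) and a stable partner. When oxygen is present, EGLN enzymes hydroxylate the alpha subunit and the VHL protein marks it for destruction. When oxygen is scarce, the complex binds DNA at a short core motif and raises many glycolytic genes as well as mitophagy, matrix and feedback genes. Lung endothelium is known for a high level of Epas1.

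The HIF core motif was looked up in promoter windows from RefSeq (GRCm38.p6), each reaching from 250 bases before to 50 after an annotated transcript start. The letters searched were ACGTG and GCGTG on either strand, and a CACGTG holds a match on both. Windows were found for 36 of the 40 genes, and 32 of these 36 had a match in at least 1 window. Of all genes tested that have a window, 66.2% had a match, so the motif is common in promoters of this kind. Of the windows themselves, 41 of 53 for the 40 genes and 60.4% for all tested genes held one, and of all windows in the RefSeq table it was 43.8%. The windows below belong to the 3 hypoxia genes with the smallest p-values, to Ldha, the gene for the main lactate dehydrogenase subunit, whose window held the most matches, and to Pfkfb4, the one gene at an unadjusted p under 0.05 that stood higher in tdTomato+ cells. Each runs 5′ to 3′ along the gene, with matches on either strand in capitals.
Bnip3, chr7:138909457-138909756, minus strand: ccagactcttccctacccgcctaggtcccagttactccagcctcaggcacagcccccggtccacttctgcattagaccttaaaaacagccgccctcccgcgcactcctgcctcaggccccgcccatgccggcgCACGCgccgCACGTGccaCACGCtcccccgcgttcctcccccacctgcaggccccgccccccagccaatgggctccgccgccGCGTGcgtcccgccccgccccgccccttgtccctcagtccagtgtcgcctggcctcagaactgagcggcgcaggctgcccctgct
Ankrd37, chr8:45999801-46000100, minus strand: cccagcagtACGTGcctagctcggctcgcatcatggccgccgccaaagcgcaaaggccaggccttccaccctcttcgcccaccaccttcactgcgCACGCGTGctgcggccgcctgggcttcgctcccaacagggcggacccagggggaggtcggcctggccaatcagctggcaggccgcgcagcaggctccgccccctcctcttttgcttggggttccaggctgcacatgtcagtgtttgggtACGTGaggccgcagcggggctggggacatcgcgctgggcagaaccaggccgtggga
Egln1, chr8:124949205-124949504, minus strand: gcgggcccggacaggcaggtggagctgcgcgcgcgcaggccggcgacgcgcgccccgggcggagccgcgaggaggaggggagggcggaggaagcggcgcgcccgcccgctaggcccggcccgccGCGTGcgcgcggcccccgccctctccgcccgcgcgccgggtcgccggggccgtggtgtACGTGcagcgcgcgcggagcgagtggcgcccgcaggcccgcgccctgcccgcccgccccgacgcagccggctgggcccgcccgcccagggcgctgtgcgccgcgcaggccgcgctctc
Ldha, chr7:46845554-46845853, plus strand: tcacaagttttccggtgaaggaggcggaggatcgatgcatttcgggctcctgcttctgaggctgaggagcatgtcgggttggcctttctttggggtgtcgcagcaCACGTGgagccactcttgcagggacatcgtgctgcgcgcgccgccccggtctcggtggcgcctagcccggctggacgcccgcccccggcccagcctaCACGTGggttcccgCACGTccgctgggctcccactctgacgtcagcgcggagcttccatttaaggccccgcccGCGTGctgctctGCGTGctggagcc
Pfkfb4, chr9:108991652-108991951, plus strand: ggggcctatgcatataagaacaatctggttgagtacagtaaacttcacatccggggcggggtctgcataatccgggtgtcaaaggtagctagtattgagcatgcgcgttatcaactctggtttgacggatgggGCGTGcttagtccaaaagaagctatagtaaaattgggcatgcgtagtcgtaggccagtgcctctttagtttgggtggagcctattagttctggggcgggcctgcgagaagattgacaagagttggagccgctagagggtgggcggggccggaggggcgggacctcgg

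Bnip3 held 5 matches, between 117 and 35 bases before the start, and Ankrd37 held 4, of which 2 overlap in CACGCGTG. Egln1 held 2, Ldha 7 and Pfkfb4 1. A match is a run of letters and does not show binding. On GRCm38 Bnip3 lies at chr7:138890836-138909506, Ankrd37 at chr8:45996908-46000414, Egln1 at chr8:124908587-124949254, Ldha at chr7:46842274-46855627 and Pfkfb4 at chr9:108988272-109032236. Among the 38 tested genes, of those whose log2 fold change lay below 0, 20 of 23 with a window had a match, and of those above 0 it was 11 of 11.

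With group alone in the model, none of the 38 tested genes passed edgeR's test over all genes. Most of the abundant ones stood lower in tdTomato+ cells. Levels in CPM (counts relative to the library total, adjusted with edgeR's TMM factors) were lower in both tdTomato+ libraries than in both ZsGreen+ libraries for 12 of 23 glycolysis genes and higher for 5. For 9 of 15 hypoxia genes they were lower and for 1 higher. Over all 13177 genes tested these shares were 18.2% lower and 19.9% higher. In TPM, a scale that moved the median of all genes upwards, 9 glycolysis genes were lower and 7 higher, and 4 hypoxia genes were lower and 2 higher, against 8.17% lower and 28.8% higher over all genes. edgeR's quasi-likelihood test called 0 of the 23 and 0 of the 15 at an adjusted p under 0.05, against a background of 0.304% of all genes (0.167% higher, 0.137% lower). At an unadjusted p under 0.05 it placed 5 glycolysis genes lower and 1 higher, and 4 hypoxia genes lower and 0 higher. The background at that threshold was 3.15% lower and 5.62% higher, 8.77% in all. Log2 fold changes, tdTomato+ over ZsGreen+, lay below 0 for 14 of 23 and 12 of 15 genes, against 50.7% of all genes. The median was -0.27 for glycolysis and -0.30 for hypoxia genes, against -0.01 over all genes. The glycolysis median was -0.16 without tdTomato+ replicate 2 or ZsGreen+ replicate 1, and on TPM scales it lay between -0.13 and -0.074 and the hypoxia median between -0.16 and -0.12. DESeq2 called 2 hypoxia genes, Bnip3 and Ankrd37, and 0 glycolysis genes, where its background was 2.44%, and limma voom called 0 of either, with 0.25%. Without ZsGreen+ replicate 1 edgeR called these 2 (background 2.21%), but that fit takes its spread from the tdTomato+ libraries alone, assumes that the lone ZsGreen+ library varies as they do, and keeps the library where both genes were highest. The 5 lower glycolysis genes became 0 when either one of the tdTomato+ libraries was left out, and the 4 lower hypoxia genes became 2.

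**Figure D1:**
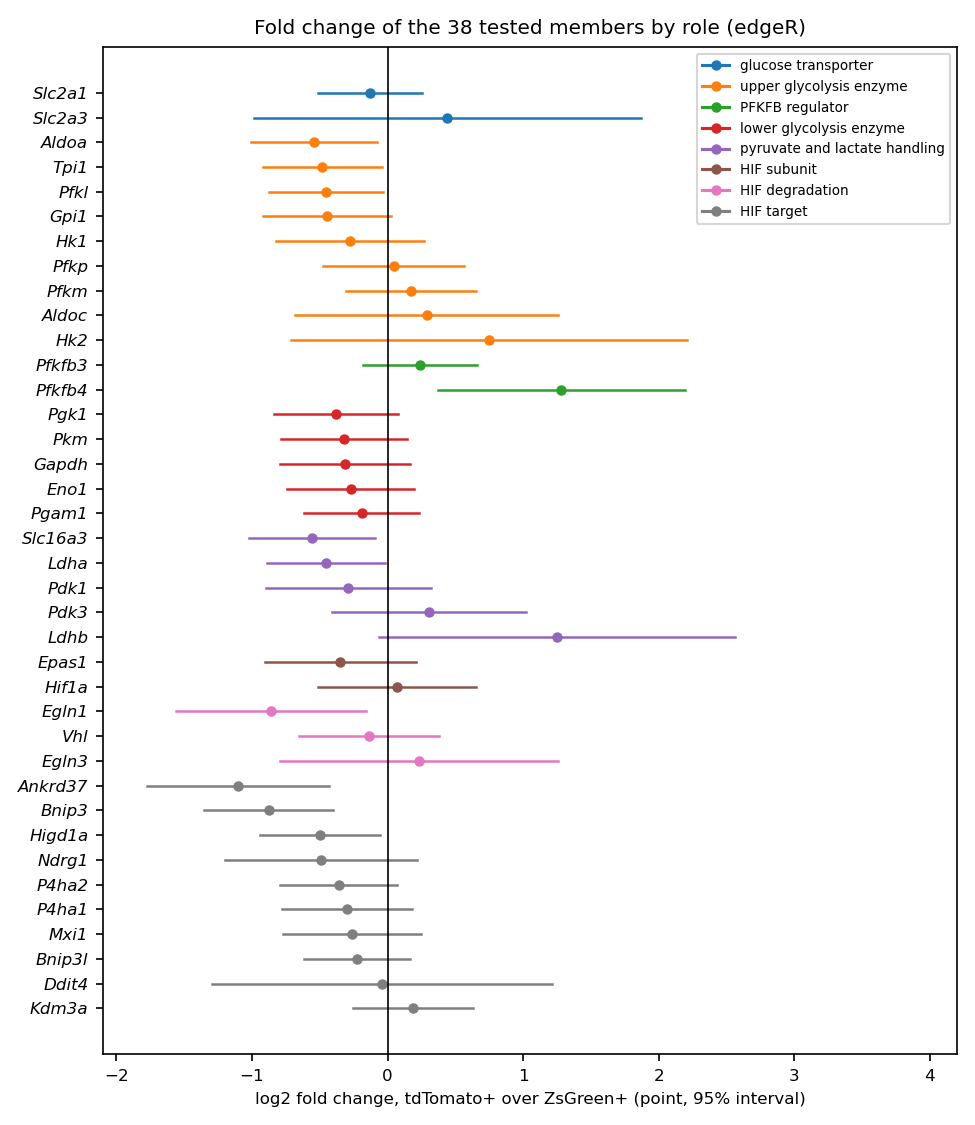
Log2 fold change of tdTomato+ over ZsGreen+ cells for the 38 genes tested, grouped by role, as a point with its 95% interval from edgeR (2 libraries per group). Intervals lie wholly below 0 for 9 genes, among them Ankrd37, Bnip3 and Aldoa, and wholly above 0 for Pfkfb4.

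The libraries held 17050673 to 18574737 counts. Genes with a count numbered 15736 and 15554 in tdTomato+ and 14961 and 15047 in ZsGreen+ libraries. Acta2, whose locus the recorder reads, stood at 303.9 and 527.5 CPM in tdTomato+ libraries and 87.6 and 82.9 CPM in ZsGreen+ cells. The endothelial markers Pecam1, Cdh5 and Esam exceeded 1000 CPM in every library, and 8 such markers summed to 6525 to 6873 CPM in tdTomato+ and 7535 to 8211 CPM in ZsGreen+ libraries. In these bulk libraries fewer cells of a type and less RNA per cell cannot be told apart.

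Levels of different genes were compared in TPM, transcript abundance scaled by length and library. The glycolytic genes together took 0.876% and 0.928% of all TPM in tdTomato+ libraries and 1.01% and 1.08% in ZsGreen+ libraries. Gapdh, the dehydrogenase in the middle of the pathway, led at a mean of 3642 TPM, followed by the aldolase Aldoa at 1697 TPM, the pyruvate kinase Pkm at 1139 TPM and the enolase Eno1 at 966.1 TPM. The hexokinase Hk2 was lowest of the glycolytic genes tested at 0.61 TPM. Among hypoxia genes Epas1 led at 813.6 TPM and Egln3, a HIF hydroxylase, was lowest of those tested at 2.11 TPM.

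**Figure D2:**
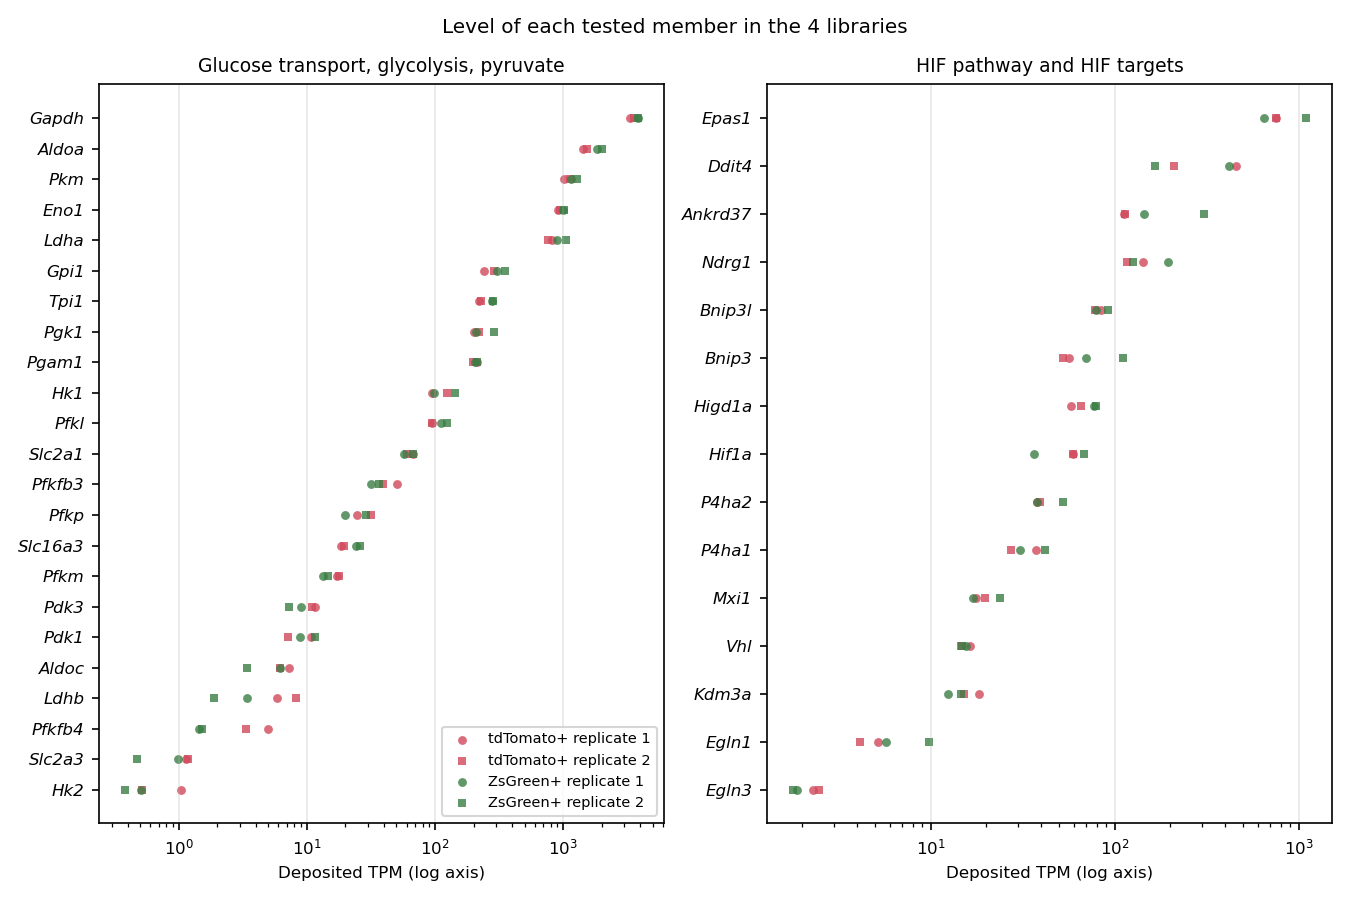
Deposited TPM of each tested gene in the 4 libraries on a log axis, ordered by mean level, with colour for the sorted group and shape for the replicate. Levels run over several orders of magnitude from Hk2 to Gapdh, and the libraries of a gene lie close together against that range, with Ldhb the widest.

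Glucose uptake at the RNA level rested on Slc2a1, the gene for the widespread glucose transporter GLUT1. It stood at 97.99 and 92.87 CPM in the tdTomato+ libraries, compared with 104.8 and 104.1 CPM in the ZsGreen+ ones, a log2 fold change of -0.13 with a 95% interval from -0.51 to 0.25. In TPM the groups overlapped and the direction turned (0.03 on the log2 scale of TPM plus 1). Slc2a3, which encodes the high-affinity transporter GLUT3, stayed at or under 2.97 CPM, and its log2 fold change of 0.44 had an interval from -0.99 to 1.87. It made up 0.69% to 1.93% of the TPM of the pair.

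Most leading enzymes of upper glycolysis had lower values in tdTomato+ cells. Aldoa, which cleaves fructose bisphosphate, stood at 1147 and 1308 CPM in the tdTomato+ libraries, compared with 1859 and 1714 CPM in the ZsGreen+ ones. Its groups did not overlap, and on the log2 scale the difference was -0.54 with an SE of 0.20 (edgeR adjusted p = 0.465). Tpi1, the triose phosphate isomerase, stood at 189.9 and 208.4 CPM against 298.6 and 257.6 CPM, which gave a log2 fold change of -0.48 (SE 0.19). Pfkl, the liver-type phosphofructokinase subunit, which catalyses the committed step, stood at 206.9 and 216 CPM against 298.5 and 280.8 CPM, or -0.45 on the log2 scale (SE 0.18). Gpi1, the phosphoglucose isomerase, lay at -0.45 on the log2 scale with both tdTomato+ libraries below both ZsGreen+ ones. These 4 genes kept that order of libraries in TPM as well. Over all genes 18.2% had that order in CPM and 8.17% in TPM. Each of the 4 averaged above 100 TPM, where 83.8% of all genes lay below 0. Hk1, the leading hexokinase, stood at 215.8 and 294.6 CPM in tdTomato+ libraries and 274.9 and 343.3 CPM in ZsGreen+ cells, so that its groups overlapped (log2 fold change -0.28, interval -0.82 to 0.27). Its value ran from -0.50 without tdTomato+ replicate 2 to -0.072 without tdTomato+ replicate 1.

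The minor isozymes of the same steps did not share that direction. Pfkm, the muscle-type subunit, lay at 0.17 and Pfkp, the platelet-type subunit, at 0.04 on the log2 scale, the latter turning to -0.16 without tdTomato+ replicate 2 and to -0.09 without ZsGreen+ replicate 1. Aldoc lay at 0.29 and turned to -0.16 without ZsGreen+ replicate 2, while Hk2 lay at 0.75 from levels between 1.1 and 3.03 CPM. The intervals of all 4 held 0.

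PFKFB enzymes make and also break down the sugar phosphate that switches phosphofructokinase on. Pfkfb4 stood at 9.63 and 6.72 CPM in the tdTomato+ libraries, compared with 3.61 and 3.12 CPM in the ZsGreen+ ones, from 128 to 175 counts against 57 in each. Both tdTomato+ libraries lay above both ZsGreen+ libraries, with a log2 fold change of 1.28 (SE 0.38, interval 0.37 to 2.19, edgeR adjusted p = 0.345). It had the smallest p-value of the 23 glycolysis genes tested. Pfkfb3, the form best known from endothelial sprouting, was the more abundant at 143.4 and 117.2 CPM against 111.7 and 109.3 CPM, which gave a log2 fold change of 0.24 (interval -0.18 to 0.66). Both genes of this pair thus had higher values in tdTomato+ cells, while Pfkl and Aldoa had lower ones. Pfkfb3 was at 0.083 without tdTomato+ replicate 1 and at 0.40 without tdTomato+ replicate 2.

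The tested genes of lower glycolysis had lower values in tdTomato+ cells. All 5 tested genes of these steps, Gapdh, Pgk1, Pgam1, Eno1 and Pkm, had both tdTomato+ libraries below both ZsGreen+ libraries in CPM, with log2 fold changes from -0.38 to -0.19 and every interval holding 0. Over all genes 18.2% had that order of libraries, and at the level of these 5, above 100 TPM, 83.8% of all genes lay below 0. Gapdh stood at 2387 and 2696 CPM against 3416 and 2909 CPM, and Pkm at 1386 and 1617 CPM against 1935 and 1819 CPM. Eno1, the leading enolase, stood at 884.7 and 976.1 CPM against 1208 and 1039 CPM, which gave a log2 fold change of -0.27. In TPM the groups of Pgk1, the phosphoglycerate kinase, and Pgam1, the mutase, overlapped. Eno2, the neuronal enolase, had 3 and 2 counts in tdTomato+ and 0 in ZsGreen+ libraries, where a count of 0 allows up to 0.19 and 0.164 CPM, and no fold is given. Estimated counts of Gapdh, Eno1 and Gpi1 were not whole in any library and those of Pfkp and Higd1a were not either, so these levels are less certain where reads were shared between similar genes. Exons of Aldoa, Tpi1, Gapdh, Pfkm, Pfkp and Mxi1 overlap those of genes on the opposite strand, and whether counting used strand is not given.

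Pyruvate is either reduced to lactate or passed to mitochondria. Ldha stood at 722.3 and 712.8 CPM in the tdTomato+ libraries, compared with 983.9 and 979 CPM in the ZsGreen+ ones. In CPM the 2 libraries of each group lay close together, well apart from the other group. The log2 fold change came to -0.45 (SE 0.18, edgeR adjusted p = 0.544). In TPM the groups did not overlap but lay less far apart, at 818.63 and 766.22 against 896 and 1056.51 TPM. Of all tested genes at 100 TPM or more 83.8% had a log2 fold change below 0. Slc16a3, which encodes the lactate exporter MCT4, stood at 25.36 and 27.93 CPM against 41.19 and 37.3 CPM, or -0.56 on the log2 scale (SE 0.20). Ldhb, the subunit that favours the return of lactate to pyruvate, was scarce and lay the other way, at 3.96 and 5.93 CPM against 2.91 and 1.26 CPM, which gave a log2 fold change of 1.25 (interval -0.07 to 2.57). Of the kinases that hold pyruvate back from mitochondria, Pdk3 stood at 13.26 and 13.23 CPM against 12.78 and 8.66 CPM, or 0.31 on the log2 scale, which was 0.048 without ZsGreen+ replicate 2 and 0.62 without ZsGreen+ replicate 1. Pdk1 lay at -0.29 with overlapping groups, and at 0.00 without tdTomato+ replicate 2.

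**Figure D3:**
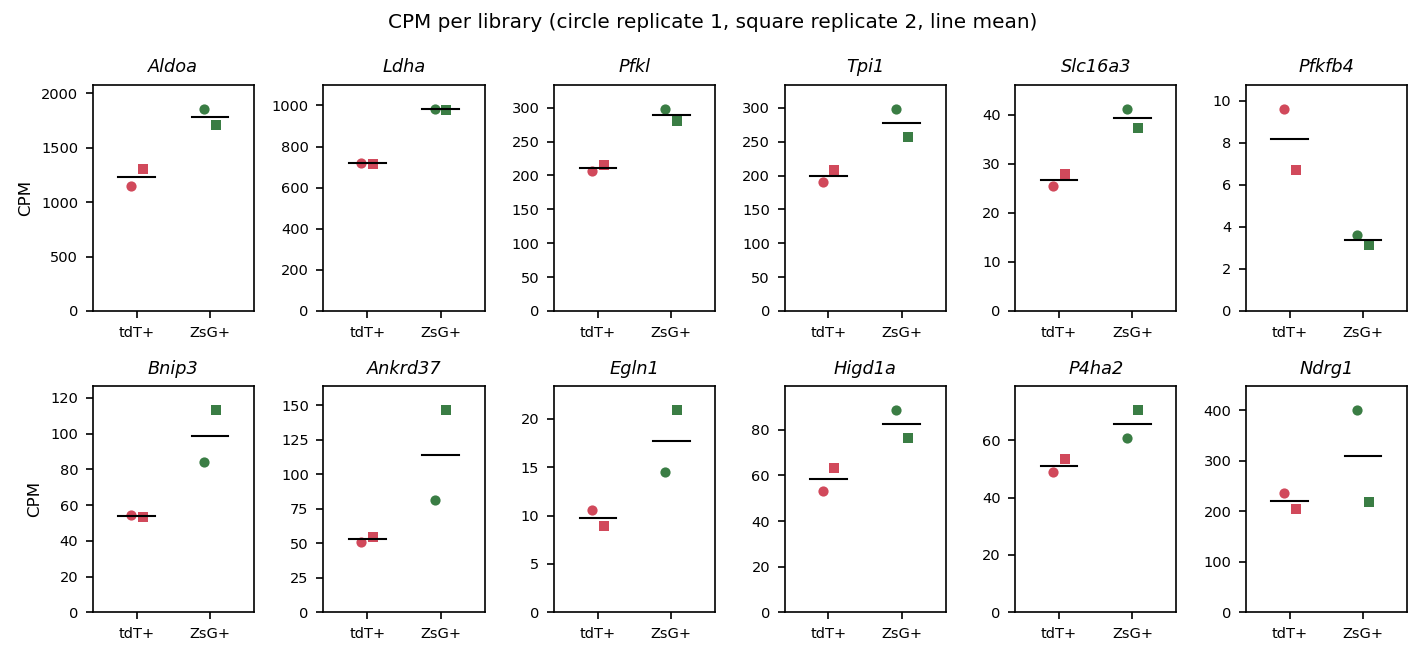
CPM in each library for the 6 glycolysis (top) and 6 hypoxia genes (bottom) with the smallest p-values, with a line at each group's mean and axes from 0. Ndrg1 has both tdTomato+ libraries near its lower ZsGreen+ library, and Pfkfb4 alone of the 12 stands higher in tdTomato+ cells.

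Isozyme shares set the genes of a step against each other within a library. Pfkl made up 69.3% and 65.7% of phosphofructokinase TPM in tdTomato+ cells and 76.9% and 73.9% in ZsGreen+ cells. Pfkm made up 12.5% ± 0.23 (SD, n = 2) against 9.02% ± 0.40, and Pfkp 18.09% and 21.98% against 13.84% and 17.36%, both without overlap of the groups. Pfkfb4 made up 8.95% and 7.89% of its pair against 4.37% and 4.02%. Ldhb was 0.70% and 1.06% of lactate dehydrogenase TPM against 0.38% and 0.18%, and Aldoc 0.51% and 0.40% of aldolase against 0.34% and 0.17%. The shares of Hk2 and Slc2a3 overlapped between groups. The leading isozyme was the same gene in every library for glucose transporter, hexokinase, phosphofructokinase, PFKFB, aldolase, enolase and lactate dehydrogenase, while Pdk1 and Pdk3 changed places between libraries. Shares were described and not tested, and no such share was computed over other gene families. By level, 33.7% of all tested genes under 10 TPM had a log2 fold change below 0. Between 10 and 100 TPM, the level of Pfkm and Pfkp, it was 59.4%. At 100 TPM or more it was 83.8%.

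**Figure D4:**
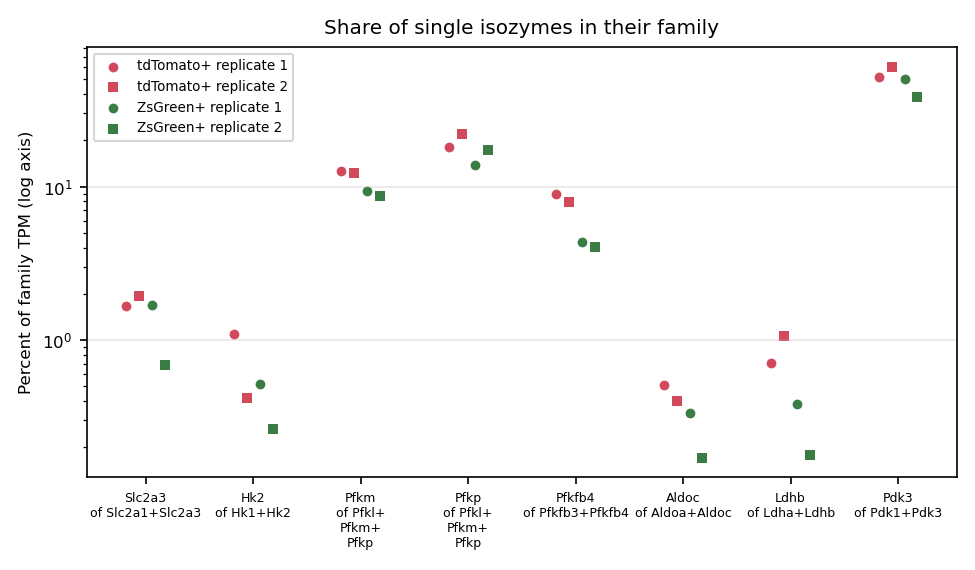
Share of the named isozyme in the summed TPM of its family (log axis) in each of the 4 libraries. Pfkm, Pfkp, Pfkfb4, Aldoc, Ldhb and Pdk3 take a larger share in both tdTomato+ libraries than in both ZsGreen+ libraries, while Slc2a3 and Hk2 overlap. Of all tested genes under 10 TPM 33.7% had a log2 fold change below 0. Between 10 and 100 TPM, the level of Pfkm and Pfkp, it was 59.4%, and at 100 TPM or more 83.8%.

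HIF alpha subunits were led by Epas1, which took 92.6% to 94.7% of their summed TPM. Epas1 stood at 2380 and 2503 CPM in the tdTomato+ libraries, compared with 2556 and 3663 CPM in the ZsGreen+ ones, so that ZsGreen+ replicate 2 stood apart from the other 3 libraries. Its log2 fold change of -0.35 (SE 0.23) was -0.07 without that library. Hif1a stood at 150.8 and 157.8 CPM against 112.6 and 181.8 CPM, with the tdTomato+ libraries inside the ZsGreen+ range (0.07, interval -0.52 to 0.65). It turned to -0.23 without ZsGreen+ replicate 1. Hif1a took 7.36% and 7.33% of the alpha subunit TPM in tdTomato+ cells and 5.27% and 5.81% in ZsGreen+ cells. Exons of Hif1a overlap those of Gm49321 on the same strand, which strand alone would not tell apart. Hif3a had 4 counts in ZsGreen+ replicate 1 and 0 in the other libraries.

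Of the genes that remove HIF, Egln1, which encodes the main oxygen-sensing hydroxylase and is itself a HIF target, stood at 10.62 and 8.87 CPM in the tdTomato+ libraries, compared with 14.49 and 20.87 CPM in the ZsGreen+ ones. The groups did not overlap, and the log2 fold change came to -0.86 (SE 0.30, interval -1.56 to -0.16, edgeR adjusted p = 0.439). Egln3, also induced by hypoxia in many cells, lay at 0.23 with overlapping groups. Vhl lay at -0.14 with an interval from -0.65 to 0.38, and its direction turned in TPM (0.02).

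HIF targets had lower values in 9 of 10 genes, against 50.7% of all genes, and 1 of the 9 was Ddit4 at -0.04. All 10 averaged above 10 TPM. Of all genes between 10 and 100 TPM 59.4% lay below 0, and of those at 100 TPM or more 83.8%. In 7 targets both tdTomato+ libraries lay below both ZsGreen+ libraries in CPM, against 18.2% of all genes. In TPM it was 3, Bnip3, Ankrd37 and Higd1a, against 8.17%. Bnip3, a mitophagy receptor, stood at 54.3 and 53.24 CPM in the tdTomato+ libraries, compared with 84.28 and 113 CPM in the ZsGreen+ ones. The tdTomato+ libraries nearly coincided, and the log2 fold change came to -0.88 (SE 0.20, interval -1.35 to -0.40, edgeR adjusted p = 0.201, DESeq2 adjusted p = 0.0199). Ankrd37, an ankyrin repeat protein induced by hypoxia, stood at 51.06 and 54.97 CPM against 81.56 and 146.4 CPM. Its log2 fold change of -1.10 (SE 0.28, edgeR adjusted p = 0.256, DESeq2 adjusted p = 0.0154) was -0.62 without ZsGreen+ replicate 2 and -1.46 without ZsGreen+ replicate 1. Bnip3 moved likewise, to -0.65 and -1.07. Exons of Ankrd37 overlap those of Ufsp2 and Lrp2bp on the opposite strand, and Ufsp2 itself stood at 24.7 and 27.35 CPM against 28.16 and 27.22 CPM while Lrp2bp was at most 0.385 CPM.

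Higd1a, a mitochondrial protein induced by hypoxia, stood at 53.26 and 63.21 CPM against 88.46 and 76.31 CPM, which gave a log2 fold change of -0.50 (SE 0.19). P4ha2, a collagen prolyl hydroxylase subunit, stood at 48.8 and 53.39 CPM against 60.68 and 70.39 CPM, or -0.36 on the log2 scale, and the related subunit P4ha1 lay at -0.30, or at -0.098 without tdTomato+ replicate 2 and -0.51 without tdTomato+ replicate 1. Bnip3l, the relative of Bnip3, lay at -0.22 and the Myc antagonist Mxi1 at -0.26. For these 4 genes, P4ha1, P4ha2, Bnip3l and Mxi1, the groups overlapped in TPM. Bnip3 made up 40% of the TPM of Bnip3 and Bnip3l in both tdTomato+ libraries and 46.9% and 54.7% in ZsGreen+ libraries. Kdm3a, a histone demethylase, was the single target with a value above 0, at 0.19 (interval -0.26 to 0.63).

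Among HIF targets Ndrg1 and Ddit4 varied most between the ZsGreen+ libraries in CPM. Ankrd37 came close, with a difference of 0.84 on the log2 scale against 0.87 for Ndrg1. In TPM Ankrd37 varied more than Ndrg1, at 143.56 and 305.64 against 194.36 and 125.32 TPM. Ndrg1, a stress-induced gene, stood at 236.8 and 203.8 CPM against 399.7 and 218.3 CPM, with overlapping groups and a log2 fold change of -0.49 that became 0.02 without ZsGreen+ replicate 1. Ddit4, an inhibitor of growth signalling through mTORC1, stood at 417.9 and 204.5 CPM in the tdTomato+ libraries, compared with 480.3 and 160.8 CPM in the ZsGreen+ ones. Its libraries of one group differed by 1.03 and 1.58 on the log2 scale, where the median over the 38 genes was 0.18 and 0.22. Its log2 fold change of -0.04 turned above 0 in TPM (0.23) and without tdTomato+ replicate 2 (0.41) or ZsGreen+ replicate 1 (0.96).

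Direction followed level among these genes, and it did so in the whole table too. All 15 tested genes of the set with a mean of at least 100 TPM had a log2 fold change below 0, with a median of -0.38. Over all 1584 tested genes at that level 83.8% were below 0, with a median of -0.18. Of the 14 genes of the set between 10 and 100 TPM 9 were below 0, against 59.4% of all genes there, and of the 9 under 10 TPM 2 were, against 33.7%. Both limits were chosen after levels had been seen. Of the 5 glycolysis genes between 10 and 100 TPM, 3 lay above 0, Pfkm, Pfkp and Pfkfb3, unlike most genes of that level. The lower values of abundant enzymes stand beside the same tendency of other genes of their level. So do the higher values of most isozymes under 10 TPM, and tdTomato+ libraries had more genes with a count. The part of this tendency in the members' values was not tested.

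**Figure D5:**
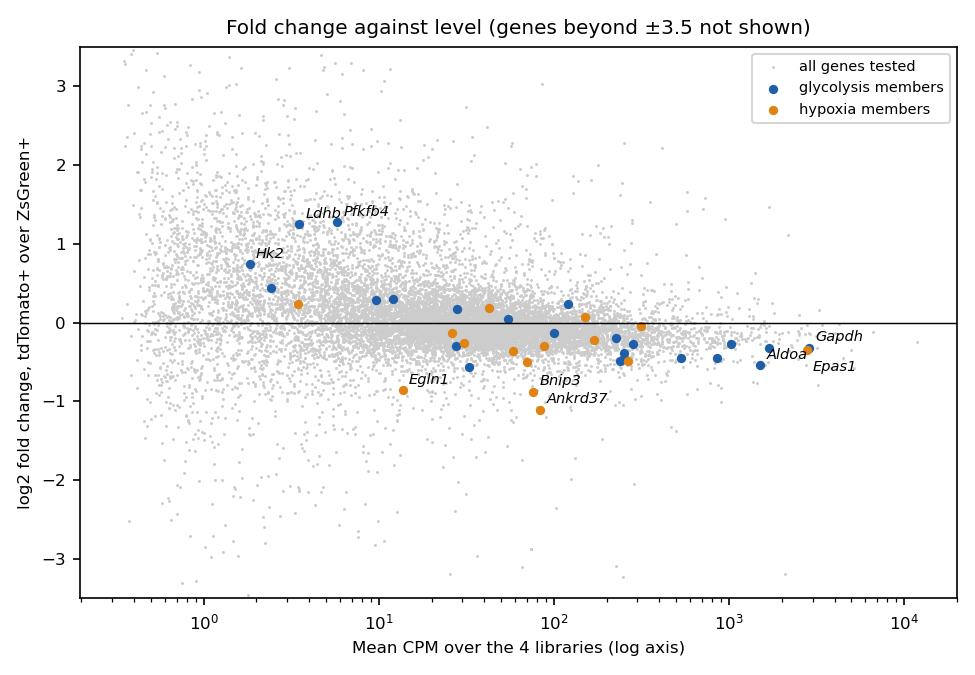
Log2 fold change of tdTomato+ over ZsGreen+ cells against mean CPM (log axis) for all genes tested (grey), with the 23 glycolysis genes in blue and the 15 hypoxia genes in orange. Members and other genes alike tend from above 0 at low levels to below 0 at high levels, with Ankrd37, Bnip3 and Egln1 on the lower side of their level.

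Other genes of both pathways were read from longer lists. Of 23 tested neighbours of glycolysis edgeR called 0, with a median log2 fold change of 0.04. At an unadjusted p under 0.05 it placed 0 of them in either direction, against 8.77% of all genes. The muscle enolase Eno3 stood at 25.25 and 29.35 CPM against 17.27 and 22.13 CPM, or 0.47 on the log2 scale (SE 0.23). Pfkfb2, another PFKFB form, lay at 0.55, the mitochondrial pyruvate carrier subunit Mpc2 at -0.29 and the transaldolase Taldo1 at -0.30. DESeq2 and limma voom called 0 of them as well.

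Of 46 other HIF regulators and known targets edgeR called 0, and their median was 0.10. At an unadjusted p under 0.05 it placed 2 higher and 4 lower, against 5.62% and 3.15% of all genes. Of the 46, 27 lay above 0 and 19 below, against 50.7% of all genes below, and limma voom called 0. Lox, the collagen cross-linking lysyl oxidase, stood at 12.05 and 17.64 CPM in the tdTomato+ libraries, compared with 2.21 and 4 CPM in the ZsGreen+ ones (log2 fold change 2.25, SE 0.41, edgeR adjusted p = 0.126). DESeq2 called Lox, as the only one of this list (adjusted p = 0.000196, background 2.44%). edgeR without a filter on low counts called Lox too (adjusted p = 0.0343, background 128 of 16747 genes). Its relative Loxl2 lay the other way at -0.88 (SE 0.27). Nos2, the inducible nitric oxide synthase, stood at 49.74 and 53.71 CPM against 82.26 and 79.92 CPM, or -0.65 on the log2 scale (SE 0.17). Apln, the peptide apelin and also a marker of aerocytes, the thin capillary cells of the alveolus, lay at -0.54 (SE 0.17). Known HIF targets therefore had values on both sides of 0.

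Markers of endothelial subtypes and of other lung cells stood apart between the same libraries. Over all genes tested edgeR called 0.137% lower and 0.167% higher, and 50.7% lay below 0. At an unadjusted p under 0.05 it placed 3.15% of all genes lower and 5.62% higher. Over 7 aerocyte markers the summed level was 221.8 and 239.7 CPM in tdTomato+ libraries and 411.6 and 446.2 CPM in ZsGreen+ libraries, with all 7 below 0, Apln the most abundant and 1, Prx, called lower by edgeR. Of 8 lymphatic markers 7 lay below 0, with Lyve1 the most abundant and above 0, and edgeR called 4 lower (720 and 1015 CPM summed against 982 and 1282 CPM). Of 8 venous markers, led by Vwf, 7 lay above 0 and 1, Vcam1, was called higher by edgeR (4632 and 5156 CPM summed against 2311 and 1985 CPM). General capillary markers, led by Plvap, overlapped in their sum at 5480 to 5940 against 5780 to 7516 CPM, while 6 of 7 lay below 0, 4 of them at an unadjusted p under 0.05. Of 8 arterial markers, led by Fbln5, 5 lay above 0 (1474 and 2369 against 1296 and 1378 CPM), with 4 higher and 1 lower at that threshold. It also held 6 aerocyte and 7 lymphatic markers as lower and 5 venous markers as higher. Most capillary and lymphatic markers thus had higher values in ZsGreen+ libraries and most venous and arterial markers in tdTomato+ libraries. Macrophage markers, led by Lyz2, summed to 5413 and 2536 CPM against 2991 and 630 CPM, and all 8 lay above 0. All 7 fibroblast markers, led by Col1a1, lay above 0 (231.8 and 430.2 CPM against 94.2 and 116.7 CPM), as did all 6 of alveolar type 2 cells, led by Sftpc (451 and 524.1 CPM against 321.1 and 187.2 CPM). Smooth muscle and pericyte, lymphocyte, neutrophil and monocyte, and erythroid and platelet markers each summed to at most 88 CPM in every library, led by Des, Ptprc, Ly6c2 and Hba-a1. Alveolar type 1 and airway markers summed to 46.1 to 413.3 CPM, led by Scgb1a1. No listed marker found in the table was at 0 in all 4 libraries. The part of any of these cells in the glycolysis and hypoxia values was not tested.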

How the data were processed

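Per the labels' protocols, an RNeasy Micro kit gave the RNA of the sorted cells, a Discover-sc WTA Kit V2 amplified it and a TruePrep kit for MGI made the libraries. Amplification from little RNA can add spread, and without molecular identifiers a count need not be a separate molecule. RSEM 1.3.1, DESeq2 1.4.5 and GRCm38 are named in the submitters' processing notes, with no roles. The sources used here give neither aligner nor strandedness, so it is not known whether reads of genes that overlap on opposite strands were told apart.

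The authors deposited estimated counts per gene (not whole for 16.2% to 17.9% of values), which were rounded for tests. The TPM and FPKM columns were used as the authors deposited them. The deposited normalized counts, a signal that tracks the estimated count by a constant ratio within each library, served no test.

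edgeR 4.0.16 (R 4.3.3) fitted tdTomato+ against ZsGreen+ libraries with TMM, filterByExpr at a minimum count of 10 and a two-sided quasi-likelihood test, Benjamini-Hochberg adjusted over 13177 genes. A log2 fold change divided by the square root of F gave its standard error (SE), and 95% intervals use the t distribution. No permutation test is given, since with 2 against 2 libraries its smallest exact p is 0.333. edgeR was tested on simulated data first. The floor for a count of 0 is 3 counts per library and covers counting error only.

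The genes, lists, naming rule and tests were chosen with earlier results of these data known. All 40 genes may be named. Values in every library are written out for the 6 glycolysis and 6 hypoxia genes with the smallest p among those averaging 1 CPM or more, and for leading isozymes. Others written out, and Rab20, Stc2 and Ufsp2, were chosen after their values were seen. Of each list of other pathway genes up to 4 with the smallest p among those averaging 5 CPM or more are named, and of marker lists the most abundant gene. The alternatives tried were DESeq2 1.42.0, edgeR with RLE or with upper quartile factors, limma 3.58.1 with voom or on log2 of TPM plus 1 or 0.1 with and without a filter at 1 TPM in 2 libraries, no count filter, a replicate block and leaving out each library.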

Additional observations from a re-analysis of the deposited data

How the results depend on the processing

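Of 38 genes 29 kept their sign under the alternatives run for them and 9 did not. There were 13 of these for each gene but Hk2, which had 11, since it did not pass the TPM filter. On the TPM scales Slc2a1 was 0.027, Vhl 0.023 or 0.024 and Ddit4 0.23. Ddit4 was also 0.0094 with upper quartile factors, 0.069 with limma voom and 0.072 with a replicate block. Without single libraries the signs that turned were in values that ran from -0.095 to 1.28 for Slc2a3, -0.16 to 0.24 for Pfkp, -0.16 to 0.93 for Aldoc, -0.62 to 0.0019 for Pdk1, -0.23 to 0.45 for Hif1a, -0.29 to 0.038 for Vhl, -0.86 to 0.016 for Ndrg1 and -0.65 to 0.96 for Ddit4. With the sign kept, leaving out a ZsGreen+ library moved Egln3 to 0.081 or 0.40, Ldhb to 0.76 or 1.97, Epas1 to -0.58 (replicate 1), Mxi1 to -0.13 and Pfkm to 0.11 (replicate 2), and Gapdh to -0.19, Eno1 to -0.16 and Pgam1 to -0.094 (replicate 1). Leaving out a tdTomato+ library moved Hk2 to 0.20 or 1.17, Kdm3a to 0.077 or 0.31 and Slc2a1 to -0.07 (replicate 2).

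Genes called over the table numbered 40 (22 higher, 18 lower), 330 with DESeq2 (204 and 126), 128 without a count filter (83 and 45), 31 on log2 of TPM plus 1 (22 and 9), 22 on log2 of TPM plus 0.1 (16 and 6) and 0 on unfiltered TPM. Leaving out a library gave 4 to 304 (0 to 203 higher, 4 to 101 lower). The TPM scales put the median of all genes at 0.12 and 0.13 (0.10 unfiltered) against -0.01, and the glycolysis median at -0.13, -0.13 and -0.074 and the hypoxia median at -0.15, -0.16 and -0.12. Without single libraries these medians ran from -0.25 to -0.16 and from -0.38 to -0.25. Glycolysis genes lower at an unadjusted p under 0.05 became 2, 2 and 1 on the TPM scales and 0 to 5 without a library. Those higher became 2 with limma voom, no count filter and each TPM scale, and 0 to 3 without a library. Hypoxia genes lower became 2 on each TPM scale and 2 to 5 without a library, with 0 to 1 higher. Hypoxia calls were 2 with DESeq2 and 0 to 2 without a library, and calls among the other hypoxia genes were 1 with DESeq2 and 1 without a count filter (Lox in both).

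Replicate numbers are shared between groups, but the labels do not say what they mark. Same-numbered libraries deviated together from their group means (correlation across genes 0.455, which 2 libraries a group make the same for both numbers). With a replicate block edgeR called 934 genes, 679 higher and 255 lower (7.09% of those tested), 1 of them a glycolysis gene, Pfkfb4 (edgeR adjusted p = 0.023), and 2 hypoxia genes, Bnip3 (0.0013) and Ankrd37 (4.13e-05). It placed 2 glycolysis genes higher at an unadjusted p under 0.05, and called 5 of the other hypoxia genes, Lox, Nos2, Loxl2, Rab20 and Stc2. With 2 libraries a group and a common coefficient of variation of 26.1%, an interval that holds 0 leaves changes of its whole width possible.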

Other observations

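The ZsGreen+ libraries were not alike in which HIF targets stood high. ZsGreen+ replicate 2 held the highest level of Ankrd37 (146.4 CPM), Bnip3 (113 CPM), Egln1 (20.87 CPM) and Epas1 (3663 CPM) of the 4 libraries. ZsGreen+ replicate 1 held the highest of Ndrg1 (399.7 CPM) and Ddit4 (480.3 CPM). In tdTomato+ cells Ankrd37 and Bnip3 differed between the libraries by 0.11 and 0.03 on the log2 scale, and in ZsGreen+ cells by 0.84 and 0.42. These genes were chosen after their values were seen, and no test was run.

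Ddit4 was higher in replicate 1 than in replicate 2 of both groups, at 417.9 against 204.5 CPM and at 480.3 against 160.8 CPM. Macrophage markers summed higher in the same libraries, 5413 against 2536 CPM and 2991 against 630 CPM, with Lyz2 the largest part. Of this list Marco ran the other way in both groups, at 11.33 against 55.18 CPM and 5 against 12.71 CPM. Mrc1 did so in ZsGreen+ cells only, at 15.63 against 20.82 CPM, and the rest were higher in replicate 1 of both groups. Lymphocyte markers also summed higher in replicate 1, at 34.8 against 18.7 CPM and 22.3 against 6.4 CPM. So did the 8 endothelial markers, at 6873 against 6525 CPM and 8211 against 7535 CPM. Aerocyte, lymphatic, arterial, fibroblast, smooth muscle and pericyte, neutrophil and monocyte, and alveolar type 1 and airway markers summed lower there in both groups. Across genes same-numbered libraries deviated together (correlation 0.455). Whether Ddit4 and macrophage markers move together beyond these 4 libraries was not tested.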
